A study of Mus musculus with 9 samples.

Results

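Of 19938 genes measured on arrays of the mouse mammary carcinoma line 4T1 and of 2 lines selected from it with chemotherapy, 69 were over 2-fold higher and 76 over 2-fold lower than 4T1 in each selected line, 145 in all. The genes were chosen by these fold changes. Both selected lines were compared with the same 3 arrays of 4T1, so an array of 4T1 that is off moves both comparisons together. 4T1 is a line of metastatic cells that lack the estrogen receptor. MR20 grew from cells that outlived methotrexate, which antagonises folate and so blocks the synthesis of nucleotides, and was afterwards kept without drug. DR500 grew from cells that outlived rising amounts of doxorubicin, an anthracycline that damages DNA through topoisomerase II. The study's methods describe recovery in normal medium after selection, and its discussion describes both lines as free of the drugs. The labels give 20 µg/ml for methotrexate, where the study's text names ng/ml, and 500 ng/ml as the last amount of doxorubicin. For DR500, other label fields name methotrexate, and doxorubicin, named in the treatment notes and the methods, is used here. Each line is represented by 3 arrays from 3 wells, and each selected line is 1 population of survivors, so p-values measure only the spread between wells, which may be technical. The labels call the arrays of 4T1 and MR20 biological replicates and those of DR500 only samples. According to the labels the 4T1 cells were grown alongside MR20. The extraction notes of DR500 name control cells WTR-, and whether the 3 arrays of 4T1 come from them is not stated. Array batches are not stated either, so a batch cannot be told apart from a line.

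The genes of the shared set touch several known systems. Alpha-arrestins such as Txnip and Arrdc4 restrain glucose uptake and are switched on when sugar phosphates build up in the cell. ATF4 is the transcription factor of the amino acid response and drives the synthesis of serine, proline and mitochondrial one-carbon units. Small nucleolar RNAs, which guide the chemical modification of ribosomal RNA, are cut from the introns of host genes. Interferon-stimulated genes restrict viruses, and acute phase genes are switched on by inflammatory cytokines.

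Values are log2 expression after robust multi-array normalization, and differences between lines are on the same scale, so that 1 stands for a doubling of the signal. Over the 9 arrays the median probe set lay at 6.24 to 6.38. Pearson's correlation over genes was 0.995 to 0.999 within a line, 0.985 to 0.987 between 4T1 and MR20 and 0.969 to 0.976 between 4T1 and DR500, and replicate 1 of DR500 deviated most from the mean of its line (root mean square 0.147 over genes, 0.0751 to 0.122 in the other arrays). The mean of 12 mammary epithelial markers was 10.30 to 10.36 in 4T1, 10.57 in each MR20 array and 7.54 to 7.74 in DR500, so the epithelial label held for 4T1 and MR20, while DR500 had lost most of the signal of Cdh1, Epcam and Krt7 and kept Krt8 (difference 0.03). The mean of 16 leukocyte markers was 6.07 to 6.12 in 4T1, 6.37 to 6.42 in MR20 and 6.35 to 6.44 in DR500.

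The contrast of the average of both selected lines against 4T1 (limma, 9 arrays in 1 fit) gave 3366 genes higher and 3860 lower at an adjusted p under 0.05, which is 16.9% and 19.4% of all genes. Beyond 2-fold, 273 genes (1.37%) were higher and 265 (1.33%) lower. Only 69 of these 273 genes (25.3%) passed 2-fold in each line, while 79 passed it in MR20 alone and 125 in DR500 alone. Of the 265 lowered genes, 76 (28.7%) passed 2-fold in each line, 27 in MR20 alone and 162 in DR500 alone. In 45 of the 273 and 31 of the 265, the difference in the other line had the opposite sign, counted whatever its size and without a test. The largest average rises outside the shared set were those of Saa3, F5, Irf7, Lrg1 and Cd53. F5, the gene of coagulation factor V, had an average contrast of 3.04 from a difference of 6.07 in DR500 and 0.00 in MR20. Irf7, a driver of interferon expression, differed by 4.93 in MR20 and 0.78 in DR500. The lowest average contrasts outside the set were those of Cldn4, Krt7, Rnf130, Esrp1 and Lcp1, with differences of -4.79 to -5.85 in DR500 and -0.46 to 0.41 in MR20.

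The 69 genes higher in each line are 0.346% of all genes and the 76 lower ones 0.381%. They make up 24.6% of the 281 genes over 2-fold higher in MR20 (1.41% of all genes) and 14.0% of the 492 in DR500 (2.47%). On the lower side they make up 35.2% of the 216 genes in MR20 (1.08%) and 12.3% of the 618 in DR500 (3.1%). Another 23 genes were over 2-fold higher in MR20 and lower in DR500, and 16 the reverse. All 145 genes had an adjusted p under 0.05 in each line and in the average contrast, and for each of them no array of a selected line overlapped with 4T1. Among all genes, 10.4% had all 6 selected arrays above those of 4T1 and 13.1% below. In 39 of the 69 and 49 of the 76, each of the 6 selected arrays was more than 2-fold beyond every array of 4T1. Most changes lay near the limit, with the smaller of both changes between 2- and 2.5-fold in 43 and 47 genes. Over 4-fold in each line were 11 and 9 genes, and over 8-fold 2 and 1. The median difference of the 69 genes was 1.33 in MR20 and 1.58 in DR500, and that of the 76 genes was -1.31 and -1.59, against -0.01 and 0.07 for all genes. These counts and medians follow from the choice of the genes.

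**Figure D1:**
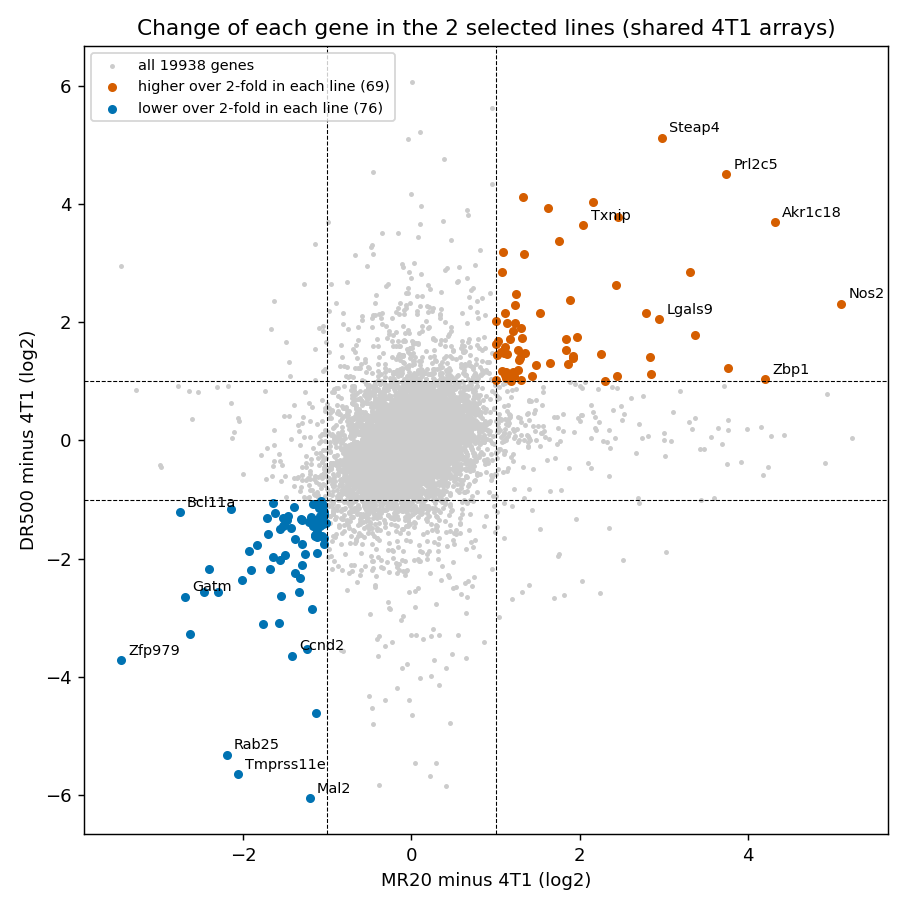
Difference from 4T1 on the log2 scale in MR20 (x axis) and in DR500 (y axis) for 19938 genes, with dashed lines at 2-fold. The 69 genes higher (orange) and 76 lower (blue) in each line occupy the outer corners, and both axes use the same 3 arrays of 4T1.

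At the limit, Atp13a4 (1.00 in MR20, 1.63 in DR500), Havcr2 (1.00 and 2.03) and Mmp9 (2.29 and 1.00) were just inside. Angptl4 (1.00 and 0.98), Dclk1 (1.89 and 0.99) and Slfn8 (2.06 and 0.99) were just outside. On the lower side Snora3, Snord73b and Mir18 were just inside, with smaller changes of -1.01, -1.03 and -1.03, and Chrnb1, Msx3 and Snora73b just outside with -0.99, -0.99 and -0.997. The smaller changes on both sides of the limit were closer to each other than their standard errors.

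The files hold no call of signal above background. As a guide to it, the 6 lymphocyte markers, which these cells should lack, had a mean of 5.07 over the 9 arrays. In 4T1 the raised genes Prl2c5 and Akr1c18 lay below that mean, and Zfp979, Gatm, Xlr, Atp8b1, Mir17hg and Spata1 of the lowered genes lay below it in 1 selected line or both. For these 8 genes the differences are given as measured, and neither their exact size nor their rank can be relied on. Outside the set, F5, Ly6g and Ly6i lay below that mean in 4T1 and MR20, and Cd53 in 4T1. Rnf130 and Snord37 lay below it in DR500. The exact sizes of the differences of these genes cannot be relied on either.

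Ranked by the smaller of both changes, 2 genes led the raised set with more than 8-fold in each line. Prl2c5, a placental hormone of the prolactin family (proliferin), had values of 5.08, 4.66 and 4.59 in 4T1, 8.51, 8.37 and 8.66 in MR20 and 9.09, 9.33 and 9.44 in DR500. All 6 selected arrays lay more than 3 units higher. Prl2c5 thus rose by 3.74 (MR20) and 4.51 (DR500), each with a standard error of 0.14 (limma, adjusted p of the average contrast 7.07e-09). Its near-identical neighbours in the prolactin cluster may share probes, which was not tested. Of 18 measured members of the placental prolactin family, 5 (27.8%, against 16.9% of all genes) passed the test as higher in the average contrast and none as lower (none also at an unadjusted p under 0.05, limma), with a median of 0.08. After Prl2c5 the largest of these were Prl7b1 (0.71 in MR20 and 0.99 in DR500), Prl7d1 (0.26 and 0.30) and Prl2a1 (0.35 and 0.09), and no other member passed 2-fold in each line. Prl7b1, Prl7d1 and Prl2a1 had means below that of the lymphocyte markers (5.07) in every line. The sizes of their differences cannot be relied on, and the 5 genes counted as higher include them. The second gene, Akr1c18, encodes an aldo-keto reductase that inactivates progesterone. The arrays gave 4.50, 4.73 and 4.57 in 4T1, 9.10, 8.89 and 8.77 in MR20 and 7.96, 8.51 and 8.41 in DR500. The arrays of MR20 were the highest. Akr1c18 thus rose by 4.32 (MR20) and 3.69 (DR500), each with a standard error of 0.14 (limma, adjusted p of the average contrast 8.40e-09). The neighbouring family members Akr1c12 (0.05 and 0.35), Akr1c14 (-0.08 and 0.23) and Akr1c19 (-0.13 and 0.13) did not pass the test, and Akr1c13 differed by 0.36 and 1.71.

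Steap4, a metalloreductase of iron and copper that inflammatory cytokines induce, had the largest rise in DR500 of the shared genes. Steap4 measured 6.53, 6.54 and 6.57 in 4T1, 9.61, 9.54 and 9.40 in MR20 and 11.66, 11.69 and 11.68 in DR500. The lines did not overlap, and the arrays of MR20 and DR500 did not overlap in 49.8% of all genes. The rise was 2.97 in MR20 and 5.13 in DR500 (standard error 0.06, n = 3 in each line, adjusted p = 1.17e-10 for the average contrast, limma). Serpinb9b, of the serpin family of proteinase inhibitors, was raised further in MR20. Its values were 6.32, 6.54 and 6.12 in 4T1, 9.65, 9.59 and 9.66 in MR20 and 9.03, 9.17 and 9.31 in DR500. The lines did not overlap. Serpinb9b thus rose by 3.31 (MR20) and 2.84 (DR500), each with a standard error of 0.11 (limma, adjusted p of the average contrast 7.61e-09). F13a1 encodes the A subunit of coagulation factor XIII, which cross-links fibrin. The arrays gave 6.85, 6.62 and 6.85 in 4T1, 9.21, 9.24 and 9.24 in MR20 and 10.60, 10.54 and 10.53 in DR500. DR500 was the highest line without overlap. Compared with 4T1, F13a1 reached 5.48-fold in MR20 and 13.8-fold in DR500, log2 differences of 2.45 and 3.78 with a standard error of 0.07. Tgm2, the tissue transglutaminase with the same kind of activity, rose by 1.53 and 2.17. Nos2, the inducible nitric oxide synthase, was the shared gene with the largest rise in MR20. Nos2 measured 6.46, 6.30 and 6.33 in 4T1, 11.58, 11.37 and 11.45 in MR20 and 8.68, 8.69 and 8.67 in DR500. Its level in DR500 lay between the others without overlap. The rise was 5.10 in MR20 and 2.32 in DR500 (standard error 0.07, n = 3 in each line, adjusted p = 3.79e-10 for the average contrast, limma).

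**Figure D2:**
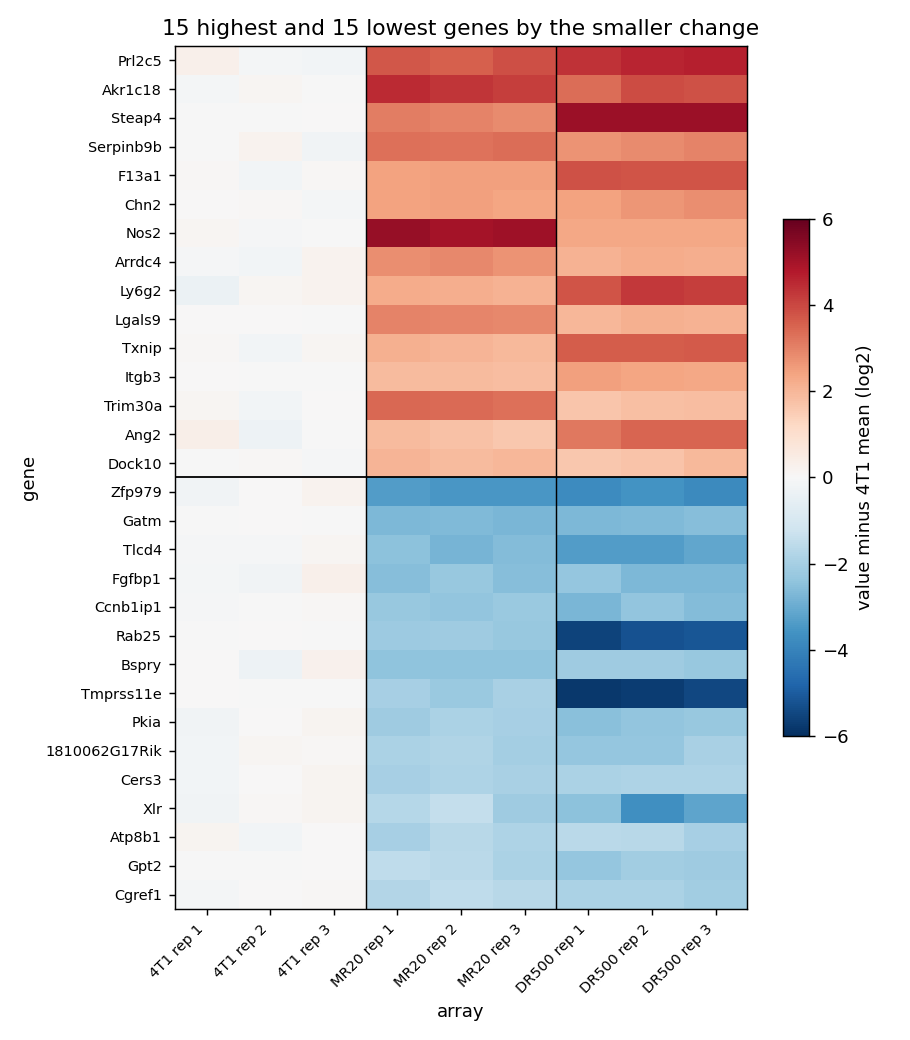
Log2 value minus the 4T1 mean (colour) in each of the 9 arrays (columns) for the 15 genes raised and the 15 lowered most by the smaller of both changes (rows). Arrays of a line share their colour, and the selected lines differ in Steap4, Nos2, Rab25 and Tmprss11e, among others.

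Ly6g2 encodes a membrane-anchored protein of the Ly6 family. Its values were 5.90, 6.39 and 6.49 in 4T1, 8.50, 8.43 and 8.33 in MR20 and 10.01, 10.49 and 10.40 in DR500. DR500 was the highest line without overlap. Ly6g2 thus rose by 2.16 (MR20) and 4.04 (DR500), each with a standard error of 0.16 (limma, adjusted p of the average contrast 9.58e-08). The Ly6 and uPAR list, which does not hold Ly6g2, had 22 measured genes, of which 7 (31.8%) were higher and none lower in the average contrast (1 lower at an unadjusted p under 0.05, limma), against 16.9% of all genes higher. Its medians were -0.07 (MR20) and 0.11 (DR500), and 1 of the 22 genes was over 2-fold in each line. This was Ly6e, a surface protein that interferon induces, which rose by 2.26 and 1.47. Ly6g differed by 0.36 and 2.51, Ly6i by 0.20 and 0.56 and Lynx1, a modulator of nicotinic receptors, by 0.51 and 0.47. The list holds 26 genes, and those without a measured probe set are not in these counts. The study's own table also gives Ly6a, Ly6c1 and Ly6c2 as over 2-fold higher in MR20. No values are given for them here, so the counts do not describe the whole family. Ang2, a ribonuclease of the angiogenin family, rose further in DR500. The arrays gave 5.68, 5.03 and 5.33 in 4T1, 7.25, 7.09 and 6.96 in MR20 and 8.51, 8.83 and 8.83 in DR500. The lines did not overlap. Compared with 4T1, Ang2 reached 3.37-fold in MR20 and 10.4-fold in DR500, log2 differences of 1.75 and 3.37 with a standard error of 0.16.

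The alpha-arrestins Txnip and Arrdc4 were both raised. Txnip, which also binds thioredoxin, had values of 7.95, 7.75 and 8.01 in 4T1, 10.03, 9.94 and 9.86 in MR20 and 11.54, 11.54 and 11.56 in DR500. All arrays of DR500 were above those of MR20. The rise was 2.04 in MR20 and 3.64 in DR500 (standard error 0.08, n = 3 in each line, adjusted p = 2.29e-09 for the average contrast, limma). Arrdc4 had values of 6.31, 6.20 and 6.56 in 4T1, 9.15, 9.22 and 9.07 in MR20 and 8.44, 8.57 and 8.53 in DR500. Here MR20 was above DR500. Arrdc4 thus rose by 2.79 (MR20) and 2.16 (DR500), each with a standard error of 0.09 (limma, adjusted p of the average contrast 1.07e-08). Of 15 measured genes of the arrestin-domain family and its regulators, 8 (53.3%) were higher and 3 (20%) lower in the average contrast, against 16.9% and 19.4% of all genes, with a median of 0.20. Arrdc1 differed by 0.20 and -1.18. Arrdc3 (-0.27 and 0.77) and the glucose transporter gene Slc2a1 (-0.32 and 0.75) moved in opposite directions in the lines, and Mlx, which encodes the partner of the sugar-sensing factors, differed by 0.30 and 0.10. Promoter sequences are shown for both genes because they carry letters of the kind these factors bind. They hold the 250 bases before the annotated start, from RefSeq (GRCm38.p6), with the motif in capitals.
Txnip (carbohydrate response element), chr3:96557707-96557956, + strand: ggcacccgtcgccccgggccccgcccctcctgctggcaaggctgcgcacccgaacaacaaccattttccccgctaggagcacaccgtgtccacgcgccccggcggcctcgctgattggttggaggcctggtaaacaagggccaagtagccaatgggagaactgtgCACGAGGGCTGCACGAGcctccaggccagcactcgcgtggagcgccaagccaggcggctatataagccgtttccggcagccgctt
Arrdc4 (E-box), chr7:68749239-68749488, - strand: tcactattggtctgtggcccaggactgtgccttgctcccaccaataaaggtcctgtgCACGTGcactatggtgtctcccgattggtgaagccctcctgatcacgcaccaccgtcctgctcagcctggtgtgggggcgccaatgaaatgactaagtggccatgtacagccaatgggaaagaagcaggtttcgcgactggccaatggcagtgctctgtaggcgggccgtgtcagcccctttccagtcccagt
In Txnip the letters of the carbohydrate response element, a pair of CACGNG motifs with 5 bases of any kind between them, begin at position -85 from the start, a motif found in 10 of 15614 promoters of measured genes (0.064%, 300 bases each, both strands). Arrdc4 holds an E-box, CACGTG, at -193, as do 8.38% of promoters. A match is a description of the letters, not of binding. Promoters were matched for 103 of the 145 genes (71.0%), too few to compare the shared set with all genes, so no share over the set is given.

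Of 43 measured interferon-stimulated genes, 42 were higher and 1, Ifit2, lower in the average contrast, and their medians differed between the lines, with 2.81 in MR20 and 0.32 in DR500. In MR20 41 passed as higher and none as lower (none also at an unadjusted p under 0.05, limma), and in DR500 21 passed as higher and 4 as lower. Among all genes 15.4% passed as higher and 17.1% as lower in MR20, and 20.2% and 21.3% in DR500. Against 16.9% of all genes, 97.7% of the list was higher in the average. Only 9 were over 2-fold in each line, namely Ifitm6, Zbp1, Trim30a, Lgals9, Gbp4, Ifi205, Lgals3bp, Aim2 and Psmb8. Lgals9 encodes galectin 9, a lectin that binds the receptor encoded by Havcr2. Lgals9 measured 9.26, 9.25 and 9.21 in 4T1, 12.22, 12.18 and 12.14 in MR20 and 11.22, 11.37 and 11.31 in DR500. MR20 was the highest line. Compared with 4T1, Lgals9 reached 7.67-fold in MR20 and 4.16-fold in DR500, log2 differences of 2.94 and 2.06 with a standard error of 0.06. Trim30a, a TRIM family protein induced by interferon, rose by 3.37 (MR20) and 1.78 (DR500). Ifi205 and Aim2, which encode receptors of the DNA-binding HIN family, rose by 1.84 and 1.52 and by 1.23 and 1.99. Psmb8, which encodes an immunoproteasome subunit, gained 1.22 and 1.10, and its lines differed by -0.13 (95% interval -0.29 to 0.03). Ifit3, an antiviral gene outside the shared set, differed by 5.23 and 0.05. In Zbp1 and Gbp4 most of the average came from MR20. Zbp1, a sensor of nucleic acids in Z form, rose by 4.20 and 1.03, and Gbp4, a GTPase, by 3.75 and 1.23. In Ifitm6, a membrane protein of the interferon-induced kind, the order was reversed (1.63 and 3.94). Promoters of Lgals9 and Trim30a are shown because each holds the interferon-stimulated response element, a pair of GAAA runs with 2 bases of any kind between them, read here on the opposite strand and in capitals.
Lgals9, chr11:78984925-78985174, - strand: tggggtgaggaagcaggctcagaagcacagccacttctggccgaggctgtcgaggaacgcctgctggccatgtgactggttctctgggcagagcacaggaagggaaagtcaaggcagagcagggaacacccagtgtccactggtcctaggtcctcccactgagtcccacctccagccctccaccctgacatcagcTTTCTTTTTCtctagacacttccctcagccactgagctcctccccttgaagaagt
Trim30a, chr7:104465194-104465443, - strand: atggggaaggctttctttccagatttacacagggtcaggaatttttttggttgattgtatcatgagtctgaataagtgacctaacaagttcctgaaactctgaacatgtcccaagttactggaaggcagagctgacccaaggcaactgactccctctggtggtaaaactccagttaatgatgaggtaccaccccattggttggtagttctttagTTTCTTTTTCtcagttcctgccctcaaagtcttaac
The element begins at -55 in Lgals9 and at -36 in Trim30a, and is present in 3.32% of all promoters. Elsewhere in the shared set it was present in the raised genes Ifi205 and Pilra and in the lowered gene Mecom. The promoters of Ifitm6, Lgals3bp, Aim2 and Psmb8 were searched and did not hold it.

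Galectin genes and their ligands numbered 12, of which 7 (58.3%) were higher and 1 (8.33%) lower, against 16.9% and 19.4% of all genes. In MR20 4 passed as higher and in DR500 7, against 15.4% and 20.2% of all genes. Lgals3bp, a secreted glycoprotein that binds galectins, rose by 1.92 and 1.43, and Havcr2, the receptor TIM-3, by 1.00 and 2.03. Lgals2 differed by -0.10 and 2.93. Lgals1, the most studied member, differed by -0.03 and 0.00 and did not pass the test. In the genome Lgals9 lies next to Nos2 on chromosome 11, and both were raised. Other shared genes within 10 annotated genes of each other were C1qtnf1 and Lgals3bp, Tlcd2 and Slc43a2, and Tgm2 and Lbp, which were raised, and Mir18 and Mir17hg, Zfp57 and Rnf39, and Slc44a3 and Tlcd4, which were lowered. In 4 such pairs the genes moved in opposite directions, namely Slc41a2 and Aldh1l2, Ecm1 and Ciart, Denn2b and Snora3, and Ifitm6 and Ano9. No share expected from gene order was computed.

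The inflammasome and cell death sensors held 21 measured genes, of which 10 (47.6%) were higher and 3 (14.3%) lower, against 16.9% and 19.4% of all genes, with a median of 0.23. Casp1, which cleaves interleukin 1 beta, had values of 8.03, 8.16 and 8.41 in 4T1, 9.44, 9.28 and 9.30 in MR20 and 9.96, 10.32 and 10.31 in DR500. The lines did not overlap. The rise was 1.14 in MR20 and 1.99 in DR500 (standard error 0.12, n = 3 in each line, adjusted p = 1.32e-06 for the average contrast, limma). Among the other members, the adaptor gene Pycard differed by 0.01 and -0.02, Nlrp3 by -0.30 and 0.62, and the substrate gene Il1b by 0.26 and -0.89.

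Acute phase and innate soluble factors were higher in 18 of 20 measured genes (90%, against 16.9% of all genes) and lower in none (none also at an unadjusted p under 0.05, limma). In MR20 11 passed as higher and in DR500 17, against 15.4% and 20.2% of all genes, and 6 were over 2-fold in each line. These were Steap4, Nos2, Lbp, Ccrl2, Clu and C1qtnf1. Medians of the list were 0.27 (MR20) and 1.40 (DR500). Clu, a secreted chaperone, had nearly equal changes. Its values were 10.59, 10.57 and 10.59 in 4T1, 11.93, 11.83 and 11.86 in MR20 and 11.96, 11.92 and 12.07 in DR500. The 6 selected arrays overlapped with each other and not with 4T1. Clu thus rose by 1.29 (MR20) and 1.40 (DR500), each with a standard error of 0.06 (limma, adjusted p of the average contrast 3.62e-08). C1qtnf1, a secreted protein with a complement-like domain, rose by 1.27 and 1.36. Lbp, which carries lipopolysaccharide to its receptor, rose by 1.33 in MR20 and 4.12 in DR500, with values of 6.34, 5.24 and 5.63 in 4T1 that spread more widely than in the selected lines. Ccrl2, a receptor that binds chemerin, rose by 2.83 and 1.41.

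Among the cell surface and matrix genes, 11 of 33 measured adhesion and cytoskeletal linker genes were over 2-fold higher in each line and 3 lower. In the average contrast 21 (63.6%) were higher and 8 (24.2%) lower, against 16.9% and 19.4% of all genes. Itgb3, the integrin beta 3 subunit, had values of 7.83, 7.78 and 7.78 in 4T1, 9.71, 9.70 and 9.63 in MR20 and 10.28, 10.14 and 10.10 in DR500. All arrays of DR500 were above MR20. Compared with 4T1, Itgb3 reached 3.68-fold in MR20 and 5.19-fold in DR500, log2 differences of 1.88 and 2.38 with a standard error of 0.06. Its partner gene Itgav differed by 0.50 and 0.51. Edil3, which encodes a secreted ligand of integrin alpha v beta 3, rose by 1.27 and 1.20. Icam1, a ligand of leukocyte integrins, rose by 1.07 and 1.49. Chn2, a GTPase-activating protein for Rac, had values of 6.08, 6.15 and 5.95 in 4T1, 8.49, 8.53 and 8.44 in MR20 and 8.47, 8.71 and 8.86 in DR500. The selected lines overlapped. The rise was 2.43 in MR20 and 2.62 in DR500 (standard error 0.09, n = 3 in each line, adjusted p = 1.21e-08 for the average contrast, limma). Dock10, an activator of Rac and Cdc42, rose by 1.97 and 1.75. Flnc, Synpo2 and Fblim1, which encode actin-binding or filamin-binding proteins, rose by 1.00 to 1.18 in either line. Ecm1, an extracellular matrix protein, rose by 1.24 and 2.49. P4ha2 and P3h2, hydroxylases of collagen proline, rose by 1.17 and 1.72 and by 1.08 and 2.86. Loxl4, a lysyl oxidase, Pls1, an actin bundler of microvilli, and Ablim1, an actin-binding protein, fell. Loxl4 fell by 1.70 and 1.59.

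Of 31 proteinase, inhibitor and coagulation genes, 17 (54.8%) were higher and 2 (6.45%) lower, against 16.9% and 19.4% of all genes. The gelatinase gene Mmp9 rose by 2.29 (MR20) and 1.00 (DR500), and Adamts4, a proteinase that cuts aggrecan, by 1.86 and 1.30. Serpinb9, the close relative of Serpinb9b, differed by 2.10 and -0.38, and Tfpi, an inhibitor of coagulation, by 3.43 and -1.01.

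Detoxification enzymes and efflux pumps were higher in 21 of 37 measured genes (56.8%) and lower in 1 (2.7%) in the average contrast, against 16.9% and 19.4% of all genes. In MR20 15 passed as higher and 10 as lower, with a median of 0.05, and in DR500 25 and 1, with a median of 0.68. The shares of all genes higher and lower were 15.4% and 17.1% in MR20 and 20.2% and 21.3% in DR500. Apart from Akr1c18, the genes over 2-fold in each line were Aldh3a1, Abcg2 and Mgst1. Abcg2, an efflux pump whose substrates include methotrexate and anthracyclines, had values of 6.14, 6.31 and 6.44 in 4T1, 9.13, 9.17 and 9.12 in MR20 and 7.15, 7.49 and 7.61 in DR500. Its level in DR500 was above that of 4T1 and below that of MR20 in each array. Abcg2 thus rose by 2.84 (MR20) and 1.12 (DR500), each with a standard error of 0.11 (limma, adjusted p of the average contrast 2.18e-07). Aldh3a1, an aldehyde dehydrogenase, rose by 1.08 and 3.19, and Mgst1, a glutathione transferase of membranes, by 1.30 and 1.91. The pump genes Abcb1a and Abcb1b differed by -0.85 and -1.45 in MR20 and by 1.27 and 1.32 in DR500, and their average contrasts did not pass.

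Of the leukocyte markers, 2 were in the shared set, namely Cd68, a lysosomal glycoprotein of macrophages, and Spn, a sialophorin of leukocytes. Cd68 had values of 8.69, 8.82 and 8.79 in 4T1, 10.05, 9.99 and 9.94 in MR20 and 10.97, 11.08 and 11.14 in DR500. Compared with 4T1, Cd68 reached 2.35-fold in MR20 and 4.93-fold in DR500, log2 differences of 1.23 and 2.30 with a standard error of 0.07. Spn rose by 1.92 and 1.40. Of the 16 leukocyte markers, 5 (31.2%) were higher and 1 (6.25%) lower in the average contrast, against 16.9% and 19.4% of all genes. Besides Cd68 and Spn the higher ones were Cd53 (0.95 in MR20 and 4.35 in DR500), a membrane protein of most leukocytes, Cd14 (1.42 and 0.67) and Aif1 (0.17 and 0.34), and the lower one was Lcp1 (-0.46 and -4.79). The other 10 did not pass. Among these, Ptprc (5.17, 5.18 and 5.24 in 4T1, MR20 and DR500), Tyrobp (5.60, 5.63 and 5.60) and Lyz2 (4.84, 4.81 and 4.88) had mean levels near that of the lymphocyte markers. The part of other cell types in these 2 genes was not tested. Of 10 endothelial markers none passed in the average contrast (none also at an unadjusted p under 0.05, limma). Of 6 lymphocyte markers 1 was higher, Ms4a1 by 0.19 in either line, and of 12 fibroblast markers 2, Fbln1 (-0.99 and 3.70) and Pdgfra (-0.63 and 1.70).

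Of 28 genes of BMP and TGF-beta signalling, 11 (39.3%) were higher and 7 (25%) lower, against 16.9% and 19.4% of all genes. The largest average contrasts of the list included those of Inhba, which encodes an activin subunit (0.32 and -3.30), and Klf10 (0.68 and 1.32). Id1, an inhibitor of differentiation factors and a BMP target, rose by 1.11 and 1.58, and its relative Id2 by 0.64 and 1.30. The ligand gene Bmp7 fell by 1.30 and 2.12, and Mecom, a transcriptional repressor that binds SMAD3, by 1.29 and 1.75. For Mecom a dimmer probe set gave -0.20 and 0.31, so its fall rests on 1 of 2 probe sets. Ccnd2, the only D-type cyclin in the shared set, had values of 10.57, 10.65 and 10.64 in 4T1, 9.20, 9.20 and 9.20 in MR20 and 7.21, 6.91 and 6.81 in DR500. DR500 was far below MR20. It fell by 1.42 in MR20 and 3.64 in DR500 (standard error 0.09, n = 3 in each line, adjusted p = 9.96e-09 for the average contrast, limma). Ccnd1 (0.20 and 0.36) and Ccnd3 (-0.10 and 0.61) were not lowered. Cdkn1b, a cell cycle inhibitor, differed by -0.29 and -0.50, and Ccne1, cyclin E1, by 0.27 and 0.95. Of the 21 measured genes of this list 9 (42.9%) were higher and 5 (23.8%) lower, against 16.9% and 19.4% of all genes. Of 30 histone genes 3 (10%) were higher and 5 (16.7%) lower, both below the shares of all genes. Of these H2bc4 rose by 1.21 and 1.85, H1f2 differed by 0.33 and 1.14, H3c15 by -0.21 and -0.72 and H2bc21 by -0.30 and -0.34.

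Most amino acid synthesis genes were lower in both lines. Of 38 measured genes of serine, proline and mitochondrial one-carbon synthesis and other ATF4 targets, 31 (81.6%) were lower and 3 (7.89%) higher in the average contrast, against 19.4% and 16.9% of all genes. In MR20 32 passed as lower and 2 as higher, with a median of -0.61, and in DR500 28 and 4, with a median of -0.50. The shares of all genes lower and higher were 17.1% and 15.4% in MR20 and 21.3% and 20.2% in DR500. Over 2-fold in each line were Gpt2, Aldh18a1, Aldh1l2, Pck2, Psat1 and Psph. Gpt2, the mitochondrial alanine transaminase, had values of 9.36, 9.38 and 9.42 in 4T1, 7.86, 7.79 and 7.48 in MR20 and 7.06, 7.30 and 7.27 in DR500. Gpt2 thus fell by 1.68 in MR20 and 2.18 in DR500, each with a standard error of 0.10 (limma, adjusted p of the average contrast 1.10e-07). Aldh18a1, the first enzyme of proline synthesis, had values of 10.97, 11.01 and 10.94 in 4T1, 9.58, 9.52 and 9.55 in MR20 and 9.47, 9.52 and 9.50 in DR500. The arrays of MR20 lay above those of DR500 by a gap of only 0.0008, and both lines lay more than 1 unit below 4T1. Differences of Aldh18a1 from 4T1 were -1.43 in MR20 and -1.48 in DR500 with a standard error of 0.05. Psat1 and Psph catalyse successive steps of serine synthesis. The arrays gave 12.43, 12.38 and 12.43 in 4T1, 11.24, 11.30 and 11.29 in MR20 and 11.09, 11.11 and 11.02 in DR500. It fell by 1.14 in MR20 and 1.34 in DR500 (standard error 0.05, n = 3 in each line, adjusted p = 3.15e-08 for the average contrast, limma). Psph had values of 10.20, 10.37 and 10.34 in 4T1, 9.10, 9.23 and 9.20 in MR20 and 9.19, 9.32 and 9.21 in DR500. Psph thus fell by 1.13 in MR20 and 1.07 in DR500, each with a standard error of 0.07 (limma, adjusted p of the average contrast 3.62e-07). Phgdh, the first enzyme of that route, differed by -0.71 and -0.87. Aldh1l2 and Mthfd2, mitochondrial folate enzymes, differed by -1.48 and -1.34 and by -0.94 and -1.08, and Shmt2 by -0.48 and -1.04. Pck2, the mitochondrial phosphoenolpyruvate carboxykinase, fell further in MR20. Pck2 measured 9.69, 9.68 and 9.68 in 4T1, 8.03, 8.08 and 8.01 in MR20 and 8.61, 8.62 and 8.65 in DR500. Differences of Pck2 from 4T1 were -1.64 in MR20 and -1.06 in DR500 with a standard error of 0.05. Atf4 itself differed by -0.60 and -0.53, Asns by -0.56 and -0.91 and Trib3, a target that inhibits the factor, by -0.79 and -0.87. Exceptions were Slc7a11, the cystine transporter (-0.45 and 0.77), Wars (0.17 and 0.58) and Slc38a2 (0.18 and 0.18), which were higher in the average.

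**Figure D3:**
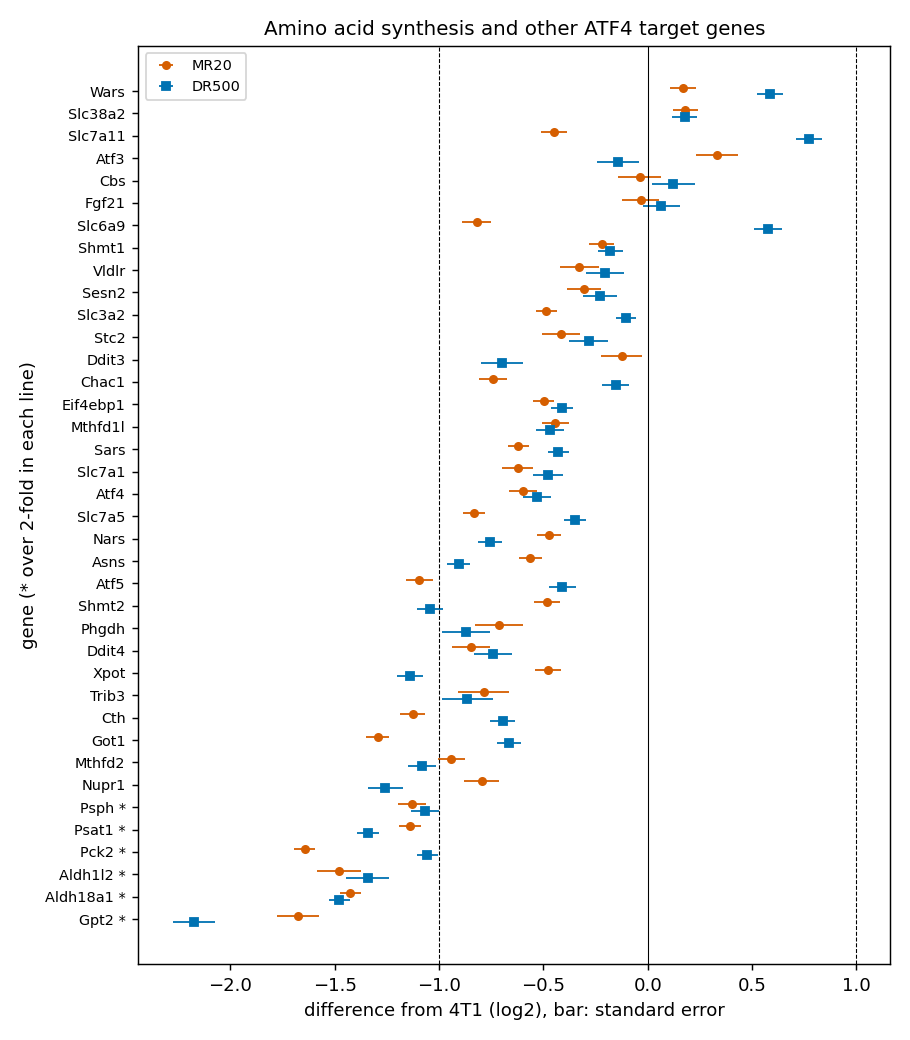
Difference from 4T1 on the log2 scale (x axis, bars are standard errors) in MR20 and DR500 for the 38 measured genes of the amino acid synthesis and ATF4 target list (y axis), with dashed lines at 2-fold. Most genes lie below 0 in both lines, and 6 marked with an asterisk pass 2-fold in each.

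The Pck2 promoter is shown because it holds the C/EBP-ATF response element TGATGNAA, in capitals on the opposite strand, to which ATF4 is known to bind.
Pck2, chr14:55540016-55540265, + strand: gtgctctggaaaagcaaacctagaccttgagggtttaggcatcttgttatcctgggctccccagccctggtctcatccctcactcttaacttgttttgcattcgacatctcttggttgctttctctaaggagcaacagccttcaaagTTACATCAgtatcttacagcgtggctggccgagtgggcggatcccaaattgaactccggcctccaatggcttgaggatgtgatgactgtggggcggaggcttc
The match begins at -103, and 3.18% of all promoters hold one. The promoters of Aldh18a1 and Psph, of the same list, were searched and did not hold it. Elsewhere in the shared set it was present in the raised genes Lgals3bp and Ecm1 and in the lowered genes 1700016C15Rik and Msmp.

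Small nucleolar RNAs were lowered in both lines. Of 51 measured genes with Snora or Snord symbols, 44 (86.3%) were lower and none higher in the average contrast (none also at an unadjusted p under 0.05, limma), against 19.4% and 16.9% of all genes, with medians of -0.52 (MR20) and -0.96 (DR500). In MR20 34 passed as lower and in DR500 45, against 17.1% and 21.3% of all genes. Snord52, Snord22, Snora33, Snora3 and Snord73b were over 2-fold lower in each line. Snora33 had values of 8.24, 8.47 and 8.60 in 4T1, 7.14, 7.15 and 7.05 in MR20 and 5.93, 6.36 and 6.04 in DR500. DR500 lay below MR20 in every array. It fell by 1.32 in MR20 and 2.32 in DR500 (standard error 0.12, n = 3 in each line, adjusted p = 4.80e-07 for the average contrast, limma). Snord37 differed by -0.26 and -2.23. Snord52, a guide for 2'-O-methylation, had values of 8.36, 8.31 and 8.65 in 4T1, 7.03, 6.95 and 6.81 in MR20 and 6.75, 7.17 and 7.11 in DR500. Here the selected lines overlapped. Snord52 thus fell by 1.51 in MR20 and 1.43 in DR500, each with a standard error of 0.12 (limma, adjusted p of the average contrast 2.97e-06). Host genes moved the same way. Of 15 measured host genes 12 were lower and none higher, none also at an unadjusted p under 0.05 from limma (medians -0.39 and -0.87), and Snhg5 and Rabggtb passed 2-fold in each line. Snhg5, a noncoding host, had values of 10.39, 10.38 and 10.55 in 4T1, 9.28, 9.44 and 9.51 in MR20 and 8.73, 8.96 and 8.67 in DR500. Differences of Snhg5 from 4T1 were -1.04 in MR20 and -1.66 in DR500 with a standard error of 0.09. Rabggtb, a subunit of the enzyme that attaches lipids to Rab proteins, fell by 1.03 and 1.26. Gas5 differed by -0.59 and -0.69, Snhg16 by -0.80 and -1.53, Snhg15 by -0.49 and -0.95 and Dkc1, which encodes the pseudouridine synthase of these particles, by -0.29 and -0.92. Ribosomal protein genes were lower in 37 of 60 (61.7%) and higher in none (none also at an unadjusted p under 0.05, limma), with a median of -0.16 and -0.30. None of them passed 2-fold in each line, and the lowest average contrasts were those of Rpl12 (-0.81 and -1.33), Rpl30 (-0.63 and -0.78), Rps12 (-0.40 and -0.85) and Rpl13 (-0.47 and -0.62). Since a snoRNA lies within an intron of its host, its mature form and the unspliced host transcript cannot be told apart by these probe sets.

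**Figure D4:**
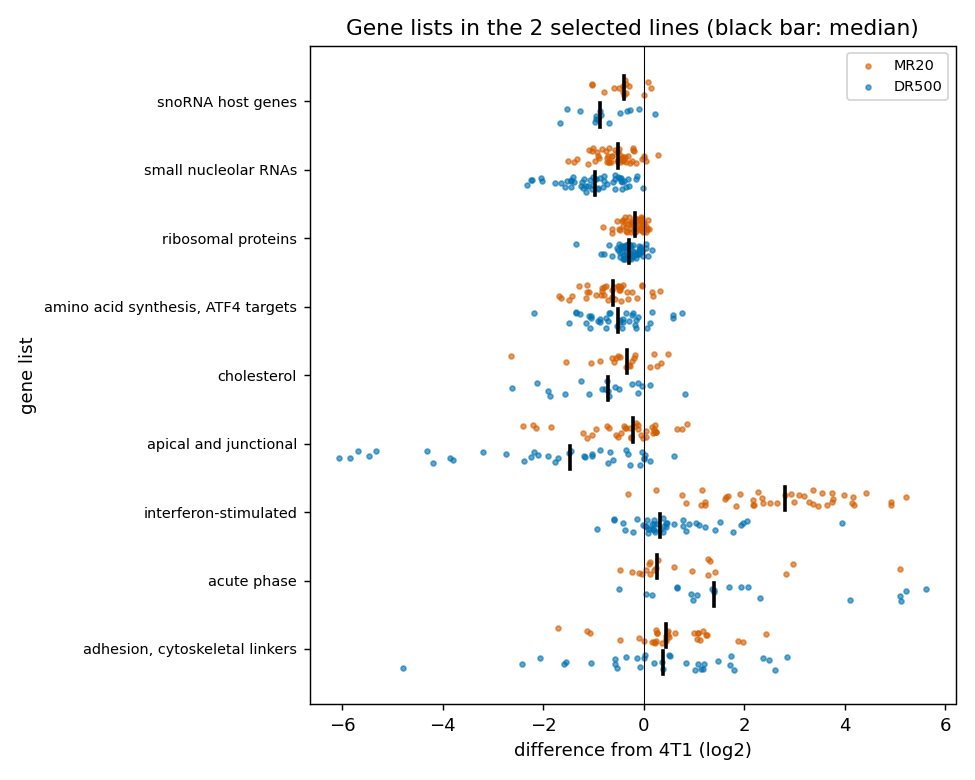
Difference from 4T1 on the log2 scale (x axis) of the genes of 9 lists (y axis) in MR20 and DR500, where each point is a gene and black bars are medians. Most small nucleolar RNAs and most genes of the amino acid list lie below 0 in both lines, and the interferon list lies far above 0 in MR20 with a median of 0.32 in DR500.

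The 6 measured genes of the miR-17 cluster were lower in the average contrast. Mir17hg, the host transcript, had values of 6.57, 6.39 and 6.63 in 4T1, 5.39, 5.24 and 5.52 in MR20 and 5.03, 4.64 and 5.11 in DR500. The 4T1 arrays were the highest and DR500 the lowest. It fell by 1.14 in MR20 and 1.60 in DR500 (standard error 0.13, n = 3 in each line, adjusted p = 5.08e-06 for the average contrast, limma). The locus of Mir18 had values of 7.62, 7.69 and 8.08 in 4T1, 6.83, 6.66 and 6.79 in MR20 and 5.60, 6.04 and 6.49 in DR500. Mir18 thus fell by 1.03 in MR20 and 1.75 in DR500, each with a standard error of 0.20 (limma, adjusted p of the average contrast 9.44e-05). Differences of the other measured loci in MR20 and DR500 were -0.76 and -0.78 for Mir17, -0.98 and -1.84 for Mir19a, -0.53 and -1.14 for Mir19b-1 and -0.20 and -0.74 for Mir20a. Mean levels of Mir17 and Mir20a were below that of the lymphocyte markers (5.07) in every line. Those of Mir19a and Mir19b-1 were below it in both selected lines. The exact sizes of these differences therefore cannot be relied on. In MR20 Mir20a overlapped with 4T1 and did not pass (adjusted p = 0.429, limma). Of 297 measured miRNA loci 10 (3.37%) were higher and 35 (11.8%) lower, below the 16.9% and 19.4% of all genes, with a median of 0.00. Without replicate 3 of 4T1 the average call of Mir20a was lost (adjusted p = 0.117, limma). The probes read RNA from these loci, not the mature miRNA, whose amounts were not measured. The mature sequences are shown, with the seed (bases 2 to 8) in capitals, because loci of this cluster fall into groups by seed.
mmu-miR-17-5p, chr14:115043684-115043706: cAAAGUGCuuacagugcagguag
mmu-miR-20a-5p, chr14:115044183-115044205: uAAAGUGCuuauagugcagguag
mmu-miR-18a-5p, chr14:115043867-115043889: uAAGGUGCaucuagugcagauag
mmu-miR-19a-3p, chr14:115044048-115044070: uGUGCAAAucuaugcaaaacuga
mmu-miR-19b-3p, chr14:115044358-115044380: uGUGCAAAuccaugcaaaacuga
miR-17 and miR-20a share the seed AAAGUGC, and miR-19a and miR-19b share GUGCAAA, so the lowered loci encode 3 different seeds. The sequences and positions are those of RefSeq (GRCm38.p6), on the + strand of chromosome 14.

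Zfp979, a zinc finger gene, had the largest measured smaller change of the lowered genes. Its values were 6.80, 7.04 and 7.22 in 4T1, 3.67, 3.54 and 3.51 in MR20 and 3.27, 3.46 and 3.18 in DR500. All selected arrays were below 4. Differences of Zfp979 from 4T1 were -3.45 in MR20 and -3.72 in DR500 with a standard error of 0.11. Gatm, which makes the precursor of creatine, followed. The arrays gave 7.26, 7.32 and 7.28 in 4T1, 4.61, 4.64 and 4.56 in MR20 and 4.58, 4.64 and 4.71 in DR500. All selected arrays lay below the mean of the lymphocyte markers. It fell by 2.69 in MR20 and 2.65 in DR500 (standard error 0.06, n = 3 in each line, adjusted p = 9.30e-10 for the average contrast, limma). Fgfbp1, a carrier of fibroblast growth factors, fell by 2.47 and 2.56 and Ccnb1ip1, a ubiquitin ligase that acts on cyclin B, by 2.29 and 2.57. Tlcd4, which encodes a membrane protein with a TLC domain, was lowered in both lines. Tlcd4 measured 9.15, 9.14 and 9.29 in 4T1, 6.71, 6.39 and 6.60 in MR20 and 5.83, 5.86 and 6.09 in DR500. The selected lines did not overlap, and DR500 was the lowest. Tlcd4 thus fell by 2.63 in MR20 and 3.27 in DR500, each with a standard error of 0.10 (limma, adjusted p of the average contrast 7.07e-09). Pkia, an inhibitor of the cAMP-dependent protein kinase, fell by 2.01 and 2.36, and Cgref1, which encodes a secreted protein with calcium-binding EF hands, by 1.64 and 1.97. Xlr, an X-linked gene first found in lymphocytes, fell by 1.77 and 3.10, and 1810062G17Rik by 1.91 and 2.20. Cers3 makes ceramides with very long chains, and fell by 1.93 and 1.87. Dhps and Eif5a2 fell by 1.09 and 1.29 and by 1.10 and 1.34, the former encoding an enzyme of hypusine synthesis and the latter a factor that carries hypusine. Tfb1m, which methylates mitochondrial ribosomal RNA, fell by 1.46 and 1.28, Pus3, a pseudouridine synthase of transfer RNA, by 1.05 and 1.11, and Chka, the first enzyme of phosphatidylcholine synthesis, by 1.20 and 1.29.

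Apical and junctional epithelial genes held 38 measured members, of which 29 (76.3%) were lower and none higher in the average contrast (2 at an unadjusted p under 0.05, limma). Among all genes 19.4% were lower and 16.9% higher. The average came mainly from DR500, with a median of -1.46 against -0.21 in MR20. In MR20 15 were lower and 10 higher, against 17.1% and 15.4% of all genes. Over 2-fold lower in each line were Rab25, Bspry, Atp8b1, Cldn9, Msln and Mal2. Rab25, a GTPase of apical recycling, had values of 11.07, 11.10 and 11.04 in 4T1, 8.88, 8.94 and 8.82 in MR20 and 5.52, 5.82 and 5.92 in DR500. The lines did not overlap. Differences of Rab25 from 4T1 were -2.19 in MR20 and -5.32 in DR500 with a standard error of 0.09. Mal2, a protein of transcytosis, had values of 11.14, 11.23 and 11.29 in 4T1, 10.13, 9.87 and 10.04 in MR20 and 5.31, 5.11 and 5.06 in DR500. It fell by 1.21 in MR20 and 6.06 in DR500 (standard error 0.09, n = 3 in each line, adjusted p = 1.22e-09 for the average contrast, limma). Bspry, Atp8b1 and Cldn9 did not show this order. Bspry, a protein of epithelial calcium transport, had values of 8.52, 8.19 and 8.72 in 4T1, 6.08, 6.08 and 6.08 in MR20 and 6.33, 6.36 and 6.20 in DR500. Bspry thus fell by 2.40 in MR20 and 2.18 in DR500, each with a standard error of 0.11 (limma, adjusted p of the average contrast 7.54e-08). Atp8b1, a lipid flippase of apical membranes, fell by 1.84 and 1.76, and Cldn9, a tight junction claudin, by 2.15 and 1.16. Tmprss11e, a membrane serine proteinase of epithelia, fell by 2.06 and 5.65. Cldn3 differed by -0.50 and -4.32. The classical epithelial genes Cdh1 (-0.11 and -3.84), Epcam (-0.17 and -4.19) and Esrp1 (0.04 and -5.46) had differences near 0 in MR20 and large ones in DR500. The mean of 12 epithelial markers, given above, moved with these members in DR500 and not in MR20, and its part in their fall was not tested.

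Of 20 genes of cholesterol feedback and synthesis, 17 (85%) were lower and none higher in the average contrast, 1 at an unadjusted p under 0.05 from limma (medians -0.33 and -0.71). This compares with 19.4% lower and 16.9% higher among all genes. In MR20 13 passed as lower and 4 as higher, and in DR500 15 and 1. The shares of all genes were 17.1% and 15.4% in MR20 and 21.3% and 20.2% in DR500. Insig1, which retains the sterol sensor in the endoplasmic reticulum, was over 2-fold lower in each line. Its values were 11.70, 11.65 and 11.68 in 4T1, 10.24, 10.00 and 10.17 in MR20 and 9.08, 9.02 and 9.05 in DR500. Differences of Insig1 from 4T1 were -1.54 in MR20 and -2.63 in DR500 with a standard error of 0.07. Msmo1 differed by -0.87 and -2.13, Cyp51 by -0.60 and -1.90, Idi1 by -0.23 and -1.86, and Scd1, a desaturase, by -2.64 and 0.83. Ciart, a circadian repressor, fell by 1.57 and 3.08 and was lowered by both of its probe sets. Its promoter is shown for the 3 E-boxes that it holds, the letters to which the clock activators bind.
Ciart, chr3:95882229-95882478, - strand: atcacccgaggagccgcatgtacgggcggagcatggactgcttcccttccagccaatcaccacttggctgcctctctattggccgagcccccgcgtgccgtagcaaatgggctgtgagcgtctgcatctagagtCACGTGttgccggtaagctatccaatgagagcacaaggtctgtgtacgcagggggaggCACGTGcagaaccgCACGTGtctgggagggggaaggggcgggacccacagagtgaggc
The boxes begin at -116, -58 and -44.

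By type, 68 of the 69 raised genes encode proteins and 1, U90926, is a long noncoding RNA. Of the 76 lowered genes 67 encode proteins, 4 are annotated as snoRNA, 3 as long noncoding RNA, 1 as snRNA (Snord73b) and 1 as miRNA. The median level in 4T1 was 7.62 for the raised genes, 8.89 for the lowered ones and 6.98 for all genes, and 25 of the 69 were below the median gene and 5 of the 76. The rule uses the same 4T1 values, and a gene near the lower end of the scale cannot be over 2-fold lower, so the choice of the genes shapes these levels. A second probe set was present for 10 shared genes. In 9 of them both differences had the same sign in the second probe set, and in 3 (Ciart, Loxl4 and Zfand1) it was also over 2-fold in each line.

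Although all 145 genes moved the same way, many differed between the selected lines. At an adjusted p under 0.05, 49 of the 69 raised genes (71.0%) and 44 of the 76 lowered ones (57.9%) differed between DR500 and MR20, against 41.9% of all genes. The change was larger in MR20 for 19 of the 49 and in DR500 for 30, and for 6 and 38 of the 44 lowered genes. Over 2-fold, 8 raised genes were further from 4T1 in MR20 and 14 in DR500, and 1 and 12 of the lowered ones, 35 of 145 in all, against 6.1% of all genes. The 1 lowered gene was Bcl11a, a transcriptional repressor (-2.75 in MR20 and -1.21 in DR500). The line means that chose the genes also enter this contrast, so the choice shapes these shares and they are given as a description. For 24 raised and 40 lowered genes the 95% interval of the difference lay within 1.5-fold either way, and the share over all genes was not computed. These include genes that also passed the test of the difference, such as Psat1 (-0.20, adjusted p = 0.0108, limma). Aldh18a1 (-0.05, interval -0.17 to 0.06) and Slc25a10 (-0.04, -0.19 to 0.10) were among the closest. Slc25a10, the mitochondrial dicarboxylate carrier, rose by 1.21 and 1.16.

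**Figure D5:**
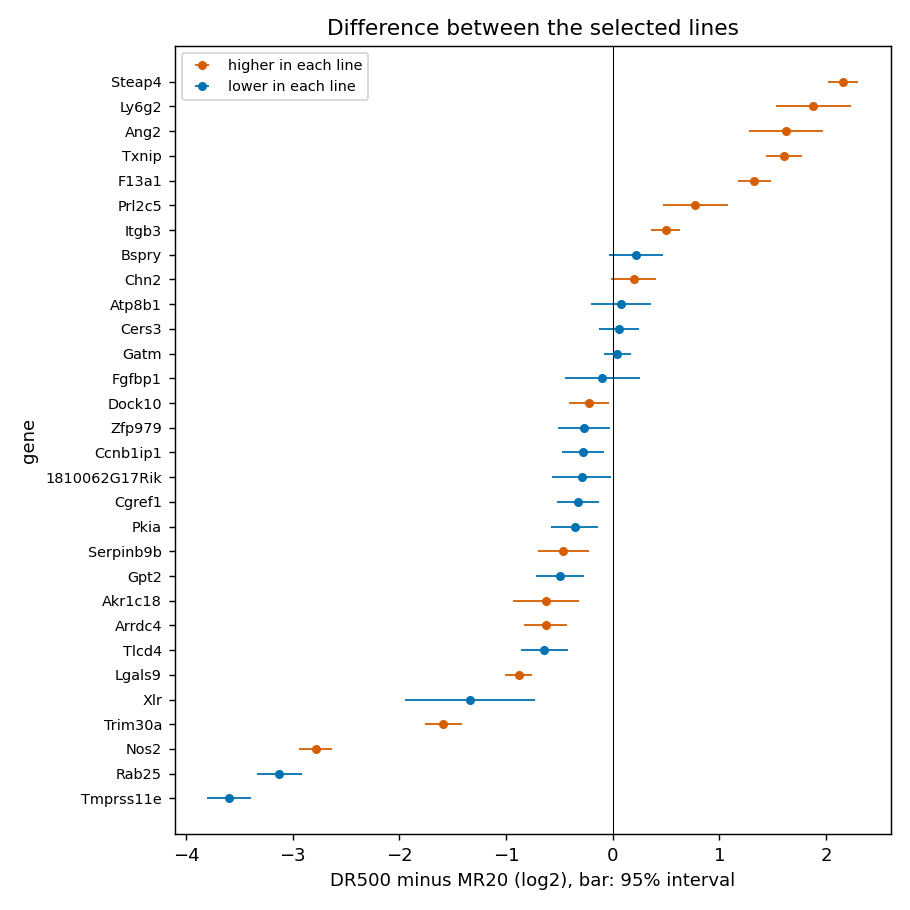
DR500 minus MR20 on the log2 scale (x axis, bars are 95% intervals) for the 15 raised and the 15 lowered genes with the largest smaller change (y axis). Intervals of Gatm, Cers3, Atp8b1, Fgfbp1, Bspry and Chn2 include 0, and those of Steap4, Nos2, Rab25 and Tmprss11e are among the intervals that lie wholly beyond 2-fold.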

How the data were processed

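RNA of 4T1, MR20 and DR500 cells was measured on 9 one-colour Affymetrix whole-transcript mouse arrays, 3 for each line. The deposited log2 values were made by the authors with robust multi-array normalization in affy (background correction, quantile normalization between arrays, summary of probes), without pooling. Versions, array batches and whether all arrays were normalized in 1 run are not given in the sources used here. The number of arrays limits the precision.

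Of 35556 probe sets, 21789 that list a single gene symbol entered, 21698 of them matched by Entrez identifier to RefSeq names (GRCm38.p6). The brightest by mean over all arrays stood for each of 999 genes with several, which left 19938 genes. Symbols come from the dated annotation of the platform, and probes shared by related genes were not examined. Line means were fitted to all 9 arrays with limma 3.58.1 in R 4.3.3 (6 residual degrees of freedom, empirical Bayes moderation, no low-value filter). Contrasts were each selected line against 4T1, their average against 4T1, and DR500 against MR20, with Benjamini-Hochberg adjustment over all genes and two-sided p-values. Fold thresholds were 2 and the adjusted p threshold 0.05. Replicate numbers did not pair the arrays. On simulated data for the average contrast over 19938 genes, 46 of 50 genes changed 1.5-fold and all 50 changed 2.5-fold were recovered.

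The genes, gene lists and tests were chosen with earlier results of these data known, so no list is independent evidence. The text names the 15 raised and 15 lowered genes with the largest smaller change, list genes over 2-fold in each line, the 4 largest changes of each list, genes next to the 2-fold limit and the 5 largest average changes outside the set in each direction. Other named genes were chosen after their values were seen. List genes without a measured probe set were left out. Of 42 listed amino acid genes 38 were measured, of 51 interferon-stimulated genes 43 and of 30 snoRNA hosts 15. Motifs were searched on both strands of 300-base RefSeq promoters (Python 3.11, pandas; figures with matplotlib). Alternatives were an intensity trend, a filter on dim genes, a repeated quantile normalization, centring, the mean over probe sets, each array left out, a replicate block and other thresholds.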

Additional observations from a re-analysis of the deposited data

Results flagged for a closer look

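Among the genes over 2-fold in each selected line, 13 differed more than 4-fold between DR500 and MR20 with an adjusted p under 0.05 (limma, test of the difference between the lines). DR500 minus MR20 was 2.79 for Lbp, 2.31 for Ifitm6, 2.16 for Steap4 and 2.11 for Aldh3a1, which were raised further in DR500. It was -2.53 for Gbp4, -2.78 for Nos2 and -3.16 for Zbp1, which were raised further in MR20. Lowered further in DR500 were Ccnd2 (-2.22), Moxd1 (-2.28), Rab25 (-3.13), Slc44a3 (-3.48), Tmprss11e (-3.60) and Mal2 (-4.85). For each of these 13 genes the 3 arrays of one selected line lay on one side of the 3 arrays of the other.

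Probe sets that name no single gene were left out of the gene-level comparison and also held signal. Of 12146 probe sets without a listed gene, 83 (0.683%) were over 2-fold lower in each selected line and 5 (0.0412%) higher. Of 1621 probe sets with several symbols, 7 (0.432%) were lower and 3 (0.185%) higher. What these probe sets measure was not examined.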

How the results depend on the processing

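The set of 69 raised and 76 lowered genes depended most on the threshold. At 1.5-fold in each line it held 242 and 368 genes, at 3-fold 17 and 16, and with every selected array over 2-fold beyond every 4T1 array 39 and 49. Under the other alternatives, each array left out included, counts ranged from 66 to 76 and from 65 to 86, of which 64 to 69 and 65 to 76 were genes of the set. The replicate block, though the numbers do not pair the arrays, left 69 and 76 genes and 273 and 265 in the average contrast, and 92 in place of 93 genes of the set differed between DR500 and MR20. The counts of the amino acid, snoRNA, host, ribosomal, cholesterol, epithelial and interferon lists stayed within 1.5 times. A repeated quantile normalization gave 302 raised and 229 lowered genes in the average contrast and centring 304 and 229. Of 196 genes followed in the average contrast (168 under the filter on dim genes) none changed direction under these alternatives, which were not run for single genes within a line. Adjusted p rose above 0.05 with 1 array left out for Prl2a1, Prl7d1, Ms4a1, H2bc21, H3c15 and Mir20a, and for Prl2a1 also with the intensity trend (0.056).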
